A study of Mus musculus with 18 samples.

Results

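The 10 genes described here make up the core of MHC class I antigen presentation and its immunoproteasome: the heavy chains *H2-K1* and *H2-D1*, the light chain *B2m*, the peptide transporter and its partner *Tap1*, *Tap2* and *Tapbp*, the inducible proteasome subunits *Psmb8*, *Psmb9* and *Psmb10*, and the regulator *Nlrc5*. They were chosen by name, and all 10 were found among the 16545 genes of the table. RNA was measured in purified splenic B cells of control and B-CKO mice before culture (0 h) and after 24 h and 48 h with LPS, a bacterial cell wall component, which gives 18 libraries with 3 replicates per group. Each replicate was 1 mouse, and whether a mouse gave cells for more than 1 time is not stated. Control mice had intact *Zbtb24* and B-CKO mice had both *Zbtb24* alleles floxed around exon 2, and both genotypes carried 1 copy of a B cell-specific Cre, on a C57BL/6 background. The age and sex of these mice are not given in the sources used here. Cells at 0 h were not cultured, so LPS and culture cannot be told apart over time. Values are FPKM, fragment numbers divided by transcript length and by the library's total, and their depth in fragments is unknown.

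MHC class I molecules display peptides from inside the cell to CD8+ T cells. Proteasomes cut proteins into peptides, the TAP transporter made of TAP1 and TAP2 carries them into the endoplasmic reticulum, and tapasin (*Tapbp*) holds the empty heavy chain and β2-microglobulin (*B2m*) at the transporter until a peptide is bound. In immunoproteasomes, the catalytic subunits encoded by *Psmb8*, *Psmb9* and *Psmb10* take the places of the constitutive *Psmb5*, *Psmb6* and *Psmb7*, and NLRC5 is known as the transactivator of class I genes, working through an enhanceosome at their promoters.

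Of the 10 genes, 7 lie on chromosome 17 (GRCm38). *Tapbp* spans chr17:33919478-33929290 and *H2-K1* chr17:33996012-34000619. *Psmb9* (chr17:34182030-34187330), *Tap1* (chr17:34187556-34197225), *Psmb8* (chr17:34198195-34201454) and *Tap2* (chr17:34204479-34216321) follow each other, and *H2-D1* spans chr17:35263094-35267497. *B2m* lies at chr2:122147687-122153082, *Psmb10* at chr8:105935728-105938392 and *Nlrc5* at chr8:94434335-94527272.

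Promoter windows are shown here for *H2-K1*, *H2-D1*, *B2m* and *Psmb8*, with the stretch shared by *Psmb9* and *Tap1*. *H2-K1* and *H2-D1* moved together over time, and *Psmb9* and *Tap1* start from that stretch. The windows of *Tapbp* and *Psmb10* are described without their sequences. Each window holds 250 bases before and 50 bases after a start annotated by RefSeq on GRCm38.p6, and 8 of the 10 genes had one. *H2-K1* had 2 overlapping windows, the one shown and chr17:34000298-34000597, both from starts inside the gene's span and not at its outer end, with the same motif counts. Capitals mark matches on either strand to the letters of 5 motifs: CCAAT (the core of the Y box), TGACG (the core of the X2 box), GAAANNGAA (the core of an interferon-stimulated response element), TTCNNNGAA (a GAS element) and GGNNNTTCC (a κB-like element).

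H2-K1, chr17:34000284-34000583, minus strand: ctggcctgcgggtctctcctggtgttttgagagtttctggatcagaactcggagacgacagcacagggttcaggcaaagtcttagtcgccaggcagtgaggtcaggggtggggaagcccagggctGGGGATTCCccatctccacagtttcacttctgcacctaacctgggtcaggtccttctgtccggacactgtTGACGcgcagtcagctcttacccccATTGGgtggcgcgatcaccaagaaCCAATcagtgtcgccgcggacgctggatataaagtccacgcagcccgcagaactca

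H2-D1, chr17:35262844-35263143, plus strand: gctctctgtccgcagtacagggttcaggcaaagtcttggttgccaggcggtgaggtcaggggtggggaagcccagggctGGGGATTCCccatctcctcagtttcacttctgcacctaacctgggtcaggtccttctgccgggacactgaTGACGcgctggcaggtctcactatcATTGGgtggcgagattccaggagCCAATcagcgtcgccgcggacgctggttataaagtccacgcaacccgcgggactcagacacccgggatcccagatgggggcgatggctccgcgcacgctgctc

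B2m, chr2:122147437-122147736, plus strand: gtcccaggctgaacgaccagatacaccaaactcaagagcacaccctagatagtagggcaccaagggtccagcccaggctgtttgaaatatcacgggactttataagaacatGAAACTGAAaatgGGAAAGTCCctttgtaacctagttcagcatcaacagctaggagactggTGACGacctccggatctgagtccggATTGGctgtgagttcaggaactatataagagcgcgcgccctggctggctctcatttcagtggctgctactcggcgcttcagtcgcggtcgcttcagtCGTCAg

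Shared stretch of Psmb9 and Tap1, chr17:34187306-34187580, plus strand, read toward Tap1: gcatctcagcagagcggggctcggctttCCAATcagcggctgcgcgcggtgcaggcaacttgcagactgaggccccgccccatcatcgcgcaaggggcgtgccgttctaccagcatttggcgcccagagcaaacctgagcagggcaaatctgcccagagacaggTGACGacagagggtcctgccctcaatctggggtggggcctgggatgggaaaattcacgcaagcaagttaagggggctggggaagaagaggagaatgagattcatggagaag

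Psmb8, chr17:34197945-34198244, plus strand: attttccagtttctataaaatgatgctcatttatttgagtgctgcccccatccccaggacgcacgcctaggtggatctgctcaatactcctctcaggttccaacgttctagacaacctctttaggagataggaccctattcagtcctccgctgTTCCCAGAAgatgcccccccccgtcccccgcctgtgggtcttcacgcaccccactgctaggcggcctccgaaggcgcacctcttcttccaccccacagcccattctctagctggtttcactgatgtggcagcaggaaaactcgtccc

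*H2-K1* and *H2-D1* held the same κB-like letters, GGGGATTCC, followed by TGACG and by CCAAT in both orientations. *B2m* held TGACG, the reverse of CCAAT, a κB-like match and the only GAAANNGAA match among the windows of the 8 genes. Only these exact letters were searched, on either strand, and variants with other spacing of the same bases were not. Both *H2-K1* and *H2-D1* hold the letters tttcacttc after their κB-like match, which this pattern cannot mark. Whether *B2m* alone holds an interferon-type element was therefore not tested. The shared stretch of 275 bases holds the first base of *Psmb9* at 34187330 and that of *Tap1* at 34187556, on opposite strands, with 1 CCAAT and 1 TGACG between them. The *Psmb8* window held only the GAS letters TTCCCAGAA, the *Tapbp* window held 2 matches to CCAAT, and that of *Psmb10* held none of the letters searched. Among 32851 promoter windows of the same length, 37.4% held CCAAT, 20.8% TGACG, 18.5% GGNNNTTCC, 8.56% GAAANNGAA and 8.30% TTCNNNGAA. A match describes the letters and is not evidence of a bound factor.

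*Zbtb24*, the floxed gene, was lower in every B-CKO library than in every control library at each time. At 0 h it stood at 49.56, 49.62 and 37.05 FPKM in controls and, in B-CKO, at 14.33, 10.53 and 12.57 FPKM. All 9 B cell markers were detected in each group. T cell markers summed to between 23.7 and 35.4 FPKM at 0 h and between 8.96 and 15.01 FPKM later, against 4574 to 6137 and 2201 to 2887 FPKM for the B cell markers, and NK cell markers to between 6.94 and 18.31 FPKM and between 0.56 and 1.53 FPKM. The 12 myeloid and dendritic markers summed to between 6.46 and 13.49 FPKM at 0 h and between 29.01 and 36.92 FPKM at 48 h. *Flt3* alone made up 23.22 to 31.89 FPKM of the latter, and at 48 h against 0 h in controls 2 of the 12 were called higher and 7 lower (26.5% and 30.3% of all genes) and in B-CKO 2 and 6 (27.0% and 30.7%), with the myeloid marker *Lyz2* at most 0.22 FPKM. Erythroid markers summed to between 9.0 and 52.75 FPKM at 0 h and between 7.51 and 16.27 FPKM later. Plasma cell markers summed to between 242.37 and 420.06 FPKM at 0 h, 134.61 and 153.93 FPKM at 24 h and 193.88 and 315.64 FPKM at 48 h. The part of other cells in the changes over time was not tested. The replicate spread was widest at 0 h, where the median SD of log2 values was 0.17 in controls and 0.16 in B-CKO, against 0.055 to 0.085 later.

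At 0 h, the class I structural genes were among the most abundant transcripts of these cells. In controls *B2m* averaged 1508 FPKM and ranked 32 of 16545, *H2-D1* averaged 1313 FPKM and *H2-K1* 1301 FPKM, with SDs of 219, 150 and 98.2 FPKM, and each pair of neighbours was closer than the larger of its SDs. *Psmb8* followed with 147 FPKM, then *Tapbp* with 123, *Tap1* with 107, *Tap2* with 93.2, *Psmb9* with 89.5 and *Psmb10* with 66.0 FPKM, where *Tap1* exceeded *Tap2* and *Psmb9* exceeded *Psmb10* by more than either SD and in each of the 3 libraries, and the other neighbours were closer than the larger of their SDs. *Nlrc5* was the lowest of the 10 at 16.8 ± 1.51 FPKM (SD, n = 3). In bulk samples, fewer cells of a type and less RNA per cell cannot be told apart, which holds for all values here.

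The first question is how the 10 genes changed when resting B cells were cultured with LPS. Both heavy chains fell by 24 h. *H2-K1*, encoding the class I heavy chain K, read 1291.13, 1404.26 and 1208.72 FPKM at 0 h in controls, 634.62, 629.71 and 625.49 FPKM at 24 h, and 727.71, 705.76 and 754.28 FPKM at 48 h. All 3 libraries of 24 h were below all of 0 h, and those of 48 h lay between the 2. Its log2 difference from 0 h to 24 h was -1.04 ± 0.07 (SE, adjusted p = 5.95e-05, limma over 15531 genes), a 2.06-fold decrease.

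*H2-D1*, the heavy chain D, followed the same course. Controls read 1269.90, 1479.99 and 1189.91 FPKM at 0 h, 589.80, 563.70 and 579.93 FPKM at 24 h and 707.21, 671.17 and 729.21 FPKM at 48 h. The decrease to 24 h was 2.26-fold (log2 difference -1.18 ± 0.09, SE, adjusted p = 9.55e-05). The partial return to 48 h was 1.16-fold for *H2-K1* (adjusted p = 0.00577) and 1.21-fold for *H2-D1* (adjusted p = 0.00269), so that both remained below 0 h, 1.78-fold and 1.86-fold lower.

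*B2m*, the light chain that pairs with both, decreased less. It read 1341.43, 1755.28 and 1426.19 FPKM at 0 h, 1168.93, 1135.13 and 1158.72 FPKM at 24 h and 1278.41, 1157.60 and 1252.87 FPKM at 48 h. The 24 h libraries lay below all 0 h libraries, with a log2 difference of -0.38 ± 0.11 (SE, adjusted p = 0.0268), which was not past 0.05 when any single control library of 24 h was left out. From 24 h to 48 h it was not called (log2 difference 0.09, 95% interval -0.04 to 0.22).

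*Tap2*, a subunit of the peptide transporter, fell with the heavy chains, from 102.13, 93.34 and 84.18 FPKM to 67.95, 65.37 and 67.08 FPKM at 24 h (log2 difference -0.47 ± 0.08, SE, adjusted p = 0.00238), and rose again to 77.20, 73.92 and 76.58 FPKM at 48 h. *Tap1*, its partner, did not follow. It read 115.22, 107.97 and 96.95 FPKM at 0 h and 114.58, 108.16 and 116.19 FPKM at 24 h, which overlap, and then 144.65, 143.69 and 148.96 FPKM at 48 h. The rise from 24 h to 48 h was 1.29-fold (adjusted p = 0.000326). *Tapbp*, tapasin, was highest at 24 h: it read 137.03, 126.41 and 104.83 FPKM at 0 h, 178.03, 176.03 and 177.31 FPKM at 24 h, and 134.36, 133.71 and 134.56 FPKM at 48 h. It rose 1.45-fold (adjusted p = 0.00424) and then fell 1.32-fold (adjusted p = 6.55e-05).

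**Figure D1:**
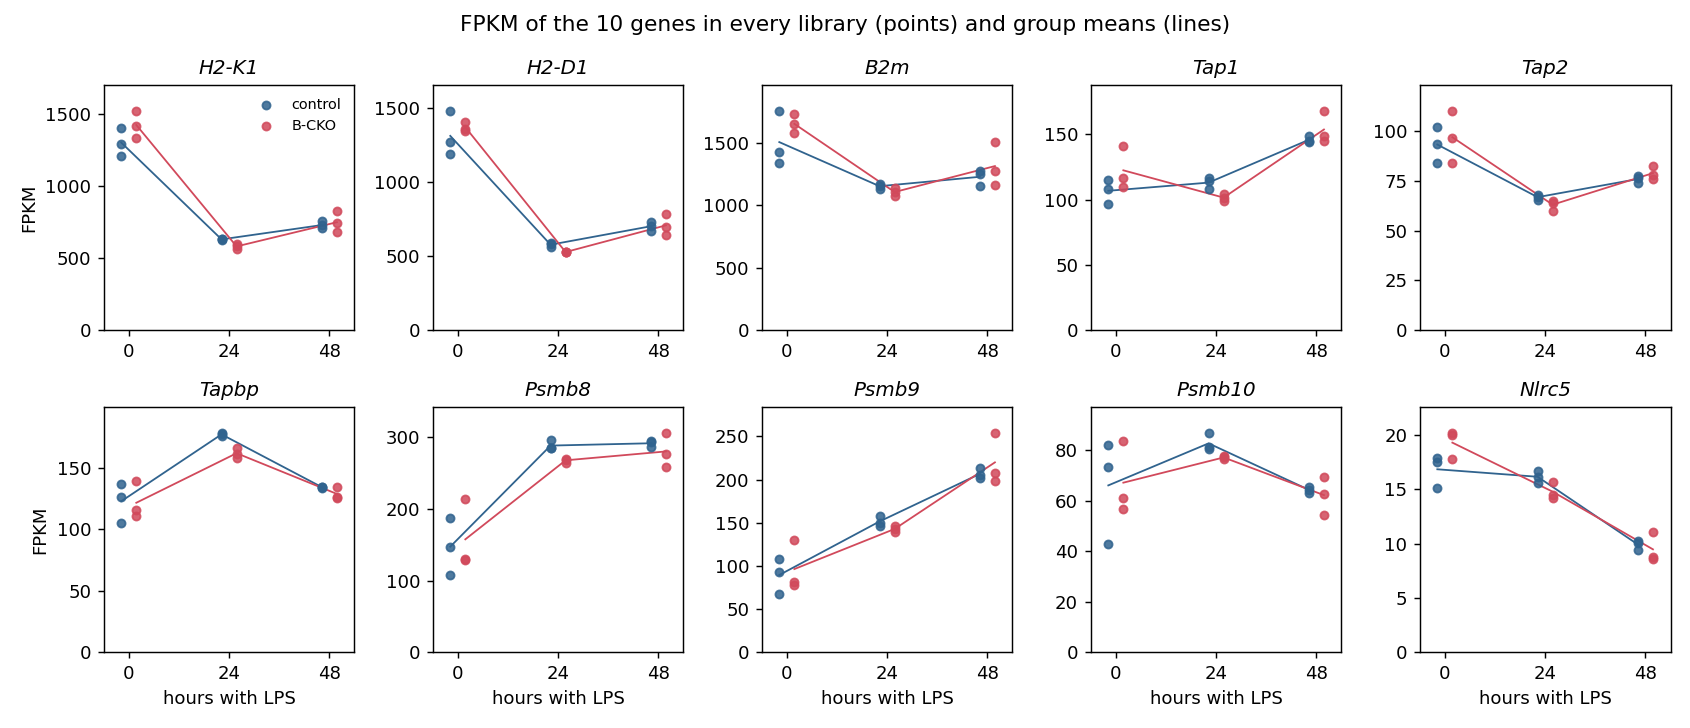
FPKM of each gene (vertical axes, from 0) against hours with LPS (horizontal axes) in control and B-CKO libraries. Points are the 3 libraries of a group and lines join group means, and the points of *H2-K1* drop from between 1208.72 and 1518.86 FPKM to between 564.11 and 634.62 FPKM by 24 h while those of *Psmb9* climb at each step.

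Of the inducible proteasome subunits, *Psmb8* and *Psmb9* rose. *Psmb8* read 187.17, 147.49 and 107.49 FPKM at 0 h in controls, 296.07, 284.68 and 284.80 FPKM at 24 h, and 295.30, 293.14 and 286.87 FPKM at 48 h. Its increase to 24 h was 2.00-fold (log2 difference 1.00 ± 0.19, SE, adjusted p = 0.0045), and from 24 h to 48 h it was not called (log2 difference 0.02, 95% interval -0.06 to 0.09). *Psmb9* read 108.45, 92.47 and 67.47 FPKM, then 157.77, 150.10 and 146.61 FPKM, then 213.29, 201.31 and 205.22 FPKM. It rose at both steps, 1.72-fold (adjusted p = 0.00748) and 1.36-fold (adjusted p = 0.000208), without overlap between the times.

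*Psmb10* differed from both. Its controls read 82.00, 73.28 and 42.67 FPKM at 0 h, 81.03, 86.60 and 80.18 FPKM at 24 h and 65.46, 64.32 and 62.87 FPKM at 48 h. The 0 h libraries overlapped those of both later times. The first step was not called (adjusted p = 0.228), and the decrease from 24 h to 48 h was 1.28-fold (adjusted p = 0.000421). *Nlrc5* was not called at 24 h and fell by 48 h. It read 15.09, 17.53 and 17.86 FPKM, then 16.70, 15.55 and 16.16 FPKM, then 9.40, 10.25 and 10.07 FPKM. The decrease to 48 h was 1.57-fold (log2 difference -0.65 ± 0.05, SE, adjusted p = 0.000122), at a step where *H2-K1*, *H2-D1*, *Tap1*, *Tap2* and *Psmb9* rose.

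Counted over the 10 genes, controls had 3 higher and 4 lower at 24 h against 0 h, where 26.7% of all genes were called higher and 30.7% lower. From 24 h to 48 h, 5 were higher and 3 lower, 8 of the 10 in all, against 44.9% of all genes called in either direction. At 48 h against 0 h, 3 were higher (*Psmb9* 2.34-fold, *Psmb8* 2.02-fold, *Tap1* 1.37-fold) and 4 lower (*H2-K1*, *H2-D1*, *Nlrc5* and *Tap2*), against 26.5% and 30.3%. The *Tap2* call at 48 h had adjusted p = 0.0205 and was not past 0.05 without any single control library of 48 h. Without both libraries of replicate 2, which leaves 2 against 2, controls lost the 24 h calls of *B2m*, *Psmb8*, *Psmb9*, *Tapbp* and *Tap2*. The 48 h calls of *Psmb8* and *Tap2* against 0 h were lost in controls too. In 1 fit across all 18 libraries, the calls from 24 h to 48 h of *Tap2* (adjusted p = 0.111), *Psmb9* (0.0678) and *Psmb10* (0.170) were lost in controls. That fit takes 1 spread per gene from all times, with the more widely spread 0 h libraries included.

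The same steps were tested in B-CKO cells. At 24 h, 3 genes were higher (*Psmb8*, *Psmb9*, *Tapbp*) and 5 lower, against 27.5% and 32.3% of all genes. *Nlrc5* was among the 5, at 19.94, 20.14 and 17.75 FPKM at 0 h and 14.46, 15.70 and 14.14 FPKM at 24 h (log2 difference -0.36 ± 0.08, SE, adjusted p = 0.00644). This call was lost without both libraries of replicate 1. From 24 h to 48 h, 5 were higher and 3 lower, against 45.7% of all genes called in either direction, and they were the same 5 and 3 genes as in controls, where *Psmb10* was again lost in the fit across 18 libraries (adjusted p = 0.226). Without both B-CKO libraries of replicate 1, *H2-K1*, *H2-D1*, *Nlrc5* and *Psmb10* lost their calls for this step. *Tap1* was not called at 24 h (log2 difference -0.26, adjusted p = 0.0595), but it was called lower under 6 alternatives that kept all libraries, among them TPM (adjusted p = 0.00625) and median-ratio scaling (0.00677). It was also called lower without replicate 1 or without replicate 2 of B-CKO at 0 h. At 48 h against 0 h, 3 were higher and 3 lower, against 27.0% and 30.7%. The *Psmb9* increase to 24 h (adjusted p = 0.0329) and the *Tap1* increase from 0 h to 48 h (adjusted p = 0.0415) did not hold without several single B-CKO libraries or after rescaling to TPM. Rescaling all values to TPM moved the median log2 difference of genes above 1 FPKM from 0.03 to -0.12 for 24 h against 0 h in controls and from 0.00 to -0.19 for 48 h against 0 h, and the sign of *Tap1* at 24 h and of *Tapbp* and *Psmb10* at 48 h against 0 h turned negative in controls, none of them called before.

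**Figure D2:**
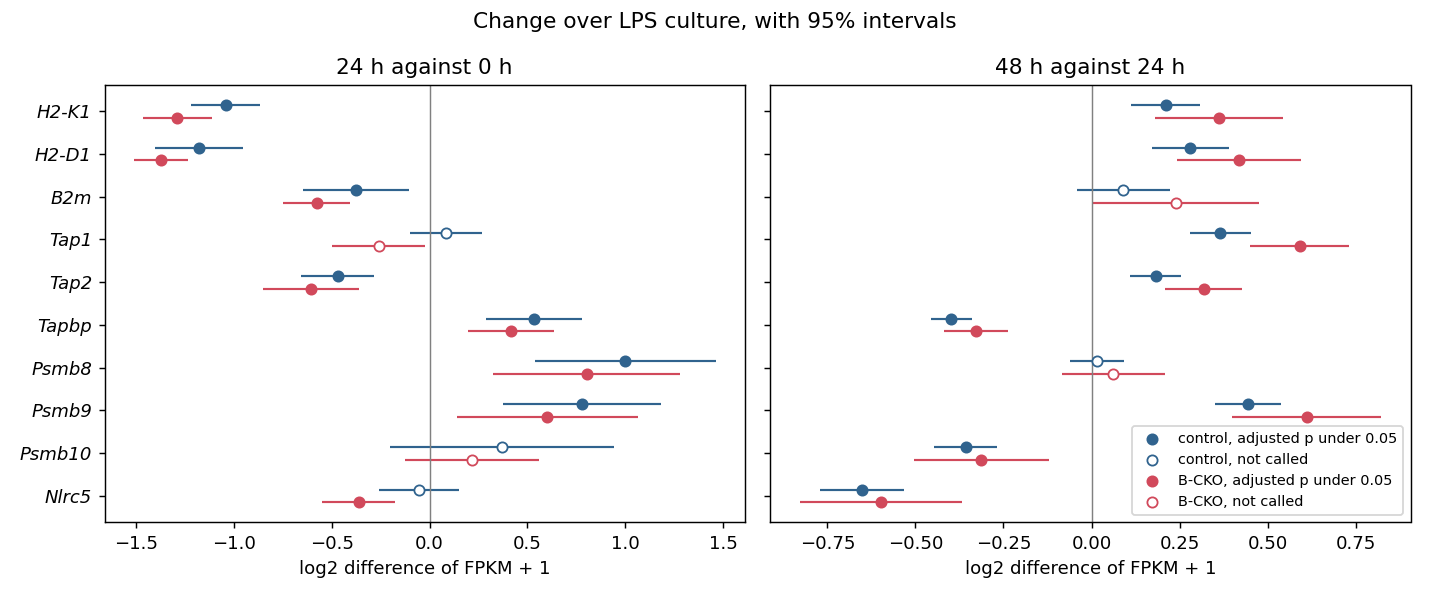
Log2 differences over time with 95% intervals (horizontal axes, log2 of FPKM + 1) for each gene in control and B-CKO cells, filled where adjusted p was under 0.05. *H2-K1* and *H2-D1* lie left of 0 at the first step and right of 0 at the second, and *Tapbp* shows the reverse.

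The constitutive partners of the inducible subunits rose too, at 24 h with larger log2 differences. At 48 h against 0 h this order did not hold for *Psmb9*, with a log2 difference of 1.22 beside 0.97 for *Psmb6* in controls and 1.21 beside 0.87 in B-CKO. *Psmb5* went from 58.78, 50.95 and 38.00 FPKM at 0 h to 184.03, 192.37 and 177.90 FPKM at 24 h in controls (log2 difference 1.91 ± 0.15, SE, adjusted p = 0.000106). *Psmb6* rose by 1.34 ± 0.08 and *Psmb7* by 1.55 ± 0.05 on the log2 scale. The FPKM ratio of *Psmb8* to *Psmb5* was 3.18, 2.89 and 2.83 in resting control libraries. After 24 h it was 1.61, 1.48 and 1.60, and after 48 h 1.66, 1.93 and 1.79. It was thus lower at both later times than in any resting library.

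The ratio of *Psmb9* to *Psmb6* had means of 1.46, 0.980 and 1.72 at the 3 times in controls, lowest at 24 h. That of *Psmb10* to *Psmb7* had means of 0.916, 0.388 and 0.324, lowest at 48 h. For 24 h against 0 h, all 3 ratios were lower without overlap in both genotypes (exact permutation test, two-sided, p = 0.1 each, the smallest p that 3 against 3 can give). In all, 27 such ratio differences were computed.

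**Figure D3:**
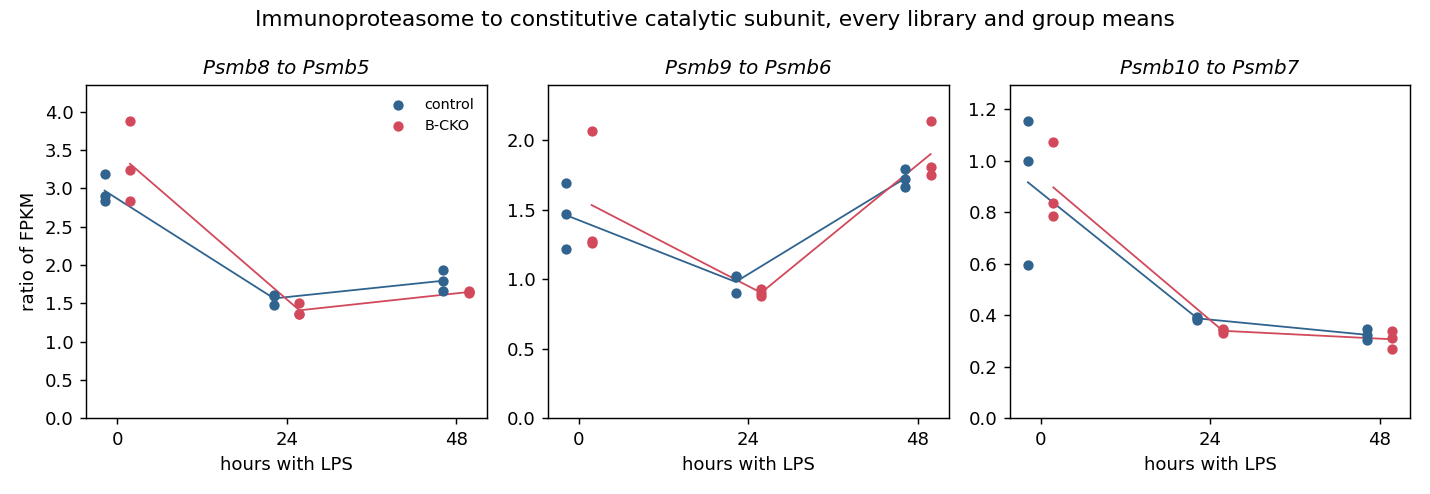
FPKM ratio of each immunoproteasome subunit to its constitutive counterpart (vertical axes, from 0) against hours with LPS, as points for libraries and lines for group means. The points of *Psmb8* to *Psmb5* lie lower at both later times than at 0 h, and control means of *Psmb9* to *Psmb6* go from 1.46 to 0.980 and 1.72.

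Around the 10 genes, the rest of the pathway was described from lists chosen by function. Of 16 other class I and class I-like heavy chains, all 16 were lower at 24 h in controls (30.7% of all genes were called lower), with a median log2 difference of -1.15. *Fcgrt*, the neonatal Fc receptor heavy chain, went from 20.58, 18.15 and 16.09 FPKM to 0.50, 0.50 and 0.31 FPKM, and *Cd1d1*, which presents lipids, fell by 2.79 on the log2 scale. All 11 genes of the MHC class II pathway were lower as well (30.7% of all genes), with a median of -2.04, and *Ciita*, the class II transactivator related to NLRC5, fell by 1.90. All 11 other core proteasome subunits were higher (26.7% of all genes were called higher), with a median of 1.75.

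All 5 genes for proteasome activators and maturation were higher too, beside the same 26.7% of all genes. *Psme2*, a subunit of the PA28 activator, read 96.08, 100.12 and 66.94 FPKM at 0 h, 427.49, 428.76 and 407.04 FPKM at 24 h and 217.59, 214.78 and 201.31 FPKM at 48 h. *Psme1*, its partner subunit, rose by 0.92 on the log2 scale. Of 6 cytosolic peptidases, which trim or destroy peptides, 5 were higher, led by *Thop1* (log2 difference 2.77) and *Lap3* (2.53). Of 10 genes for peptide loading and trimming in the endoplasmic reticulum, 6 were higher and none lower (26.7% and 30.7% of all genes), among them *Pdia3* (1.36), *Canx* (1.15) and *Calr* (0.90), all folding factors.

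Of 14 enhanceosome and other transcriptional regulators, 4 were higher and 5 lower at 24 h in controls, shares near the 26.7% and 30.7% of all genes. *Irf1*, an interferon-responsive activator of class I genes, fell from 86.22, 80.53 and 65.46 FPKM to 20.61, 18.87 and 20.02 FPKM (log2 difference -1.90 ± 0.11, SE, adjusted p = 2.8e-05). *Rfx5*, a subunit of the RFX complex that NLRC5 works with, fell by 0.74 on the log2 scale. Among those that rose were *Nfkb1*, an NF-κB subunit (log2 difference 0.67), and *Atf1*, a CREB family factor (0.61), both chosen after their values were seen. Of 12 interferon receptor and signalling genes tested, 1 was higher and 9 lower, led by *Jak2* (-1.85) and *Ifngr1* (-1.39).

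The second question is whether *Zbtb24* deficiency changed these genes. None of the 10 was called at any time. Nor was *Zbtb24* itself, which was 3.44-fold lower at 0 h (adjusted p = 0.12), 1.56-fold lower at 24 h (adjusted p = 0.0586) and 1.41-fold lower at 48 h (adjusted p = 0.267), so a missed call here does not show that a gene was unaffected. Over all genes the share called was 0% (0 h), 0.0993% (24 h) and 0.0460% (48 h). These shares depend on the filter: the 15 genes called at 24 h became 388 of 9711 with a mean of at least 1 FPKM and 704 with the replicate block added, and the 7 at 48 h became 29 and 116. At an unadjusted p under 0.05, limma counted 8 of the 10 at 24 h, where 16.3% of all genes had one, and 0 at 0 h as well as at 48 h, where 2.00% and 7.71% had one. The count at 24 h did not hold in 1 fit across the 18 libraries, where the smallest unadjusted p of the 10 was 0.0906 (limma, *Tap1*). That fit leaves the log2 differences unchanged and takes 1 spread per gene from all times. The median SD of log2 values of the 10 was 0.18 at 0 h in both genotypes. At 24 h it was 0.033 in controls and 0.035 in B-CKO, so p values of that fit at 24 h also carry the spread of 0 h.

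At 24 h all 10 genes had lower means in B-CKO, by 0.06 to 0.15 on the log2 scale, with a median of -0.11 against -0.01 over genes above 1 FPKM. In 8 of the 10, all but *B2m* and *Nlrc5*, every B-CKO library lay below every control library, which held for 11.7% of all genes tested. *Tap1* read 114.58, 108.16 and 116.19 FPKM in controls and 104.11, 99.11 and 101.26 FPKM in B-CKO (log2 difference -0.15, 95% interval -0.24 to -0.07, adjusted p = 0.124). *Tapbp* had the smallest adjusted p of the 10: controls read 178.03, 176.03 and 177.31 FPKM and B-CKO 165.96, 158.16 and 161.26 FPKM (log2 difference -0.13, adjusted p = 0.0986). These separations are narrow, a few percent of the level.

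The heavy chains showed the same small gap. *H2-D1* read 589.80, 563.70 and 579.93 FPKM in controls and 530.80, 525.69 and 528.04 FPKM in B-CKO (1.09-fold lower, adjusted p = 0.126), and *H2-K1* read 634.62, 629.71 and 625.49 FPKM against 582.93, 564.11 and 596.20 FPKM (1.08-fold lower, adjusted p = 0.154). *Psmb8* read 296.07, 284.68 and 284.80 FPKM against 268.86, 264.76 and 270.21 FPKM (adjusted p = 0.138). *B2m* overlapped, at 1168.93, 1135.13 and 1158.72 FPKM against 1078.75, 1105.02 and 1138.44 FPKM. When the replicate block was joined to a minimum mean of 1 FPKM, an alternative chosen after seeing the data, *Tap1* (adjusted p = 0.0323), *Tapbp* (0.0413) and *H2-D1* (0.0436) were past 0.05, whereas with either choice alone none was. In 1 fit across the 18 libraries, which takes in the wider spread of 0 h, none was called. There the unadjusted p of *Tap1*, *Tapbp* and *H2-D1* was 0.0906, 0.153 and 0.123 (limma).

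Neighbouring lists stood as follows at 24 h. All 11 class II pathway genes had an unadjusted p under 0.05, beside the 16.3% of all genes, and none was called, with a median log2 difference of -0.31. The 9 B cell markers had a median of -0.15, 6 of 9 at an unadjusted p under 0.05, 5 of 9 lower in every B-CKO library (11.7% of all genes) and 1 called lower (0.0993% of all genes), and 1 was called lower at 48 h. Their sum was 2535.99 to 2726.15 FPKM in controls and 2201.11 to 2289.78 FPKM in B-CKO, and their part in the differences of the 10 genes was not tested. *Psmb5*, *Psmb6* and *Psmb7* were not called either, at 0.04, 0.03 and 0.09, and *Psmb7* was higher in every B-CKO library than in every control library (limma, unadjusted p = 0.0285, adjusted p = 0.24). *Irf1* (-0.19), *Rfx5* (-0.26) and *Ciita* (-0.32) were lower in every B-CKO library than in every control library. Of the 14 regulators, 7 lay below in that way and 1 above, with a median of -0.04 and none called. Of the 16 other class I and class I-like heavy chains, 6 lay below, with a median of -0.11. Of the 11 other core proteasome subunits none lay below and 3 lay above, with a median of 0.08. Over all 15104 genes tested, 1273 lay above in that way and 1762 below.

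At 0 h and at 48 h the libraries of the genotypes overlapped for all 10 genes, whereas 3.87% (0 h) and 11.1% (48 h) of all genes did not overlap. The intervals at 0 h were wide, from -0.57 to 0.75 for *Psmb8*, so differences of that size were not detectable in that fit. Same-numbered libraries of the genotypes deviated together at 0 h, and a replicate block brought the SE of *Psmb8* from 0.27 to 0.10, with no call among the 10. *Tap1* was higher in B-CKO in each of the 3 same-numbered pairs at 0 h, at 141.19, 109.29 and 116.68 FPKM beside 115.22, 107.97 and 96.95 FPKM (log2 difference 0.19 ± 0.07, SE, adjusted p = 0.867 with the block). At 48 h that of *H2-K1* ran from -0.16 to 0.23. One B-CKO library of 48 h, replicate 3, was the highest of its group for 9 of the 10 genes, such as 1508.56 FPKM for *B2m* beside 1274.46 and 1163.46 FPKM, and had the largest sum of FPKM of all 18 libraries (563456). Without it, the 5 increases and 3 decreases of B-CKO from 24 h to 48 h were still called.

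**Figure D4:**
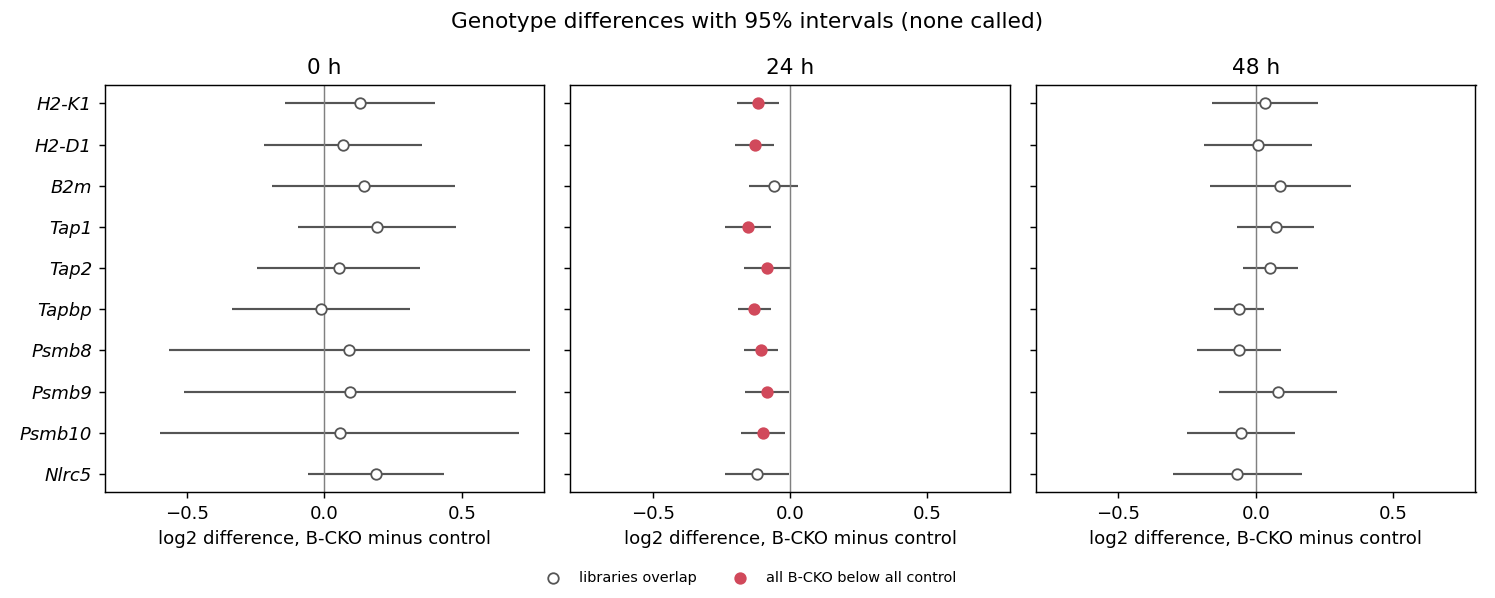
Log2 difference of B-CKO minus control (horizontal axes) with 95% intervals for each gene at 0 h, 24 h and 48 h, filled where all 3 B-CKO libraries lay below all 3 control libraries. At 24 h every point is left of 0 and 8 are filled. At 0 h every point but that of *Tapbp* is right of 0, and at 48 h the points fall on both sides.

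The genotype difference was also compared between times. No gene was called for the change from 0 h to 24 h (0% of all genes), for that from 24 h to 48 h (0%) or for that from 0 h to 48 h (0%), while 2.89%, 7.31% and 2.60% had an unadjusted p under 0.05. Among the 10 genes, *H2-K1*, *Tap1* and *Nlrc5* had an unadjusted p under 0.05 for the first (limma, adjusted p = 1 each). *Tap1* (log2 difference 0.23, 95% interval 0.07 to 0.38, adjusted p = 0.598) and *Tap2* (0.14, adjusted p = 0.649) had one for the second, and no gene of the 10 for the third.

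Over the 18 libraries, the genes whose course was most like the mean standardized profile of the 10 were *Agpat1* (Pearson r = 0.875), *Cd79b* (0.866), *Gpr18*, *Zfp952* and *Ormdl3*. Those most like *Nlrc5* were *Usp42* (r = 0.975), *Usp24* (0.973), *Helz2*, *Ralgapa1* and *Trim44*. These values describe libraries that share time points and perhaps mice. Within the 10, *H2-K1* and *H2-D1* ran closest to each other (r = 0.997), while *H2-K1* and *Psmb8* ran in opposite directions (r = -0.82). *H2-K1* and *H2-D1* are near copies of each other and of other class I genes, and 8.79% and 14.3% of their 50-base windows occur in another gene. This share was 21.0% for *Tapbp*, 12.6% for *Tap2*, 12.5% for *Psmb9*, 6.47% for *Tap1*, 5.83% for *Psmb8* and 0% for the rest. At 150 bases, the read length, *H2-K1* had 0% and *H2-D1* 1.79%, the latter with *H2-Q1* and none between the 2. *Tapbp* shared 8.73%, *Psmb9* 5.24%, *Tap1* 2.25% and *Tap2* 0.668% of such windows with an overlapping or related gene.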

How the data were processed

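The authors aligned the reads with bowtie2 to mm10, and used Cufflinks and RSEM for transcript levels. The deposited values are FPKM of 16545 genes, with 2 decimals. The submitters' processing notes also list BWA and DESeq2, and versions and annotation are not given in the sources used here. The labels name an MGI2000 instrument and the methods a HiSeq or Novaseq. Gene IDs were matched to RefSeq on GRCm38.p6 (16512 of 16545), the assembly of mm10. FPKM are not counts, so log2(FPKM + 1) was tested with limma 3.58.1 in R 4.3.3 (lmFit, eBayes with a trend) on genes above 0 in any compared library. Benjamini-Hochberg adjustment ran over all genes tested, with 0.05 as the threshold, which is what called means. Pairs of groups were fitted on their own 6 libraries, and differences between times on 12. Per the study's methods each replicate is 1 mouse. Whether libraries of different times share a mouse is not stated, and they were treated as independent. Ratios were compared with exact permutation tests. The sum of FPKM was 453150 to 472676 at 0 h and 515196 to 563456 later.

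Deviations of same-numbered control and B-CKO libraries correlated across genes at 0 h (0.854, 0.468 and 0.789). Correlations were weaker for B-CKO at 24 h and 48 h (0.126, 0.183 and 0.117) and for the 2 genotypes at 24 h (0.103, 0.200 and 0.0907). Numbers were taken to pair where all 3 values exceeded 0.1. The genotypes at 24 h missed this narrowly, though all 3 libraries correlated best with their own number, so a weak pairing there is not excluded. No other comparison met the cutoff. A number stands for 1 mouse of a genotype. What same-numbered mice of the 2 genotypes share, and whether a number is the same mouse at each time, is not stated. Alternatives were a pseudocount of 0.1, a mean of at least 1 FPKM, TPM, median-ratio scaling, the replicate block, 1 fit across the 18 libraries, and leaving out each library or number.

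The fits were tested on simulated data. That simulation was revised more than once after its first form recovered none of the changed genes at 0 h: its noise was narrowed and its fold changes were altered, and its noise in its present form is drawn from the spread that limma estimated in these data. It is therefore not an independent test of power.

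The 10 genes, the lists and the motifs were chosen with earlier results of these data known. The text names the 10 genes, *Zbtb24*, *Psmb5*, *Psmb6*, *Psmb7*, *Rfx5*, *Irf1*, *Psme1*, *Psme2*, *Calr* and *Ciita*, the 5 genes most like the 10 and most like *Nlrc5*, and at most 4 called genes with the largest change of each list. Some genes under this rule are not reported here. Windows shared between genes were counted in GENCODE transcripts on GRCm38. Figures were made in Python 3.11.15 with matplotlib 3.10.9.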

Additional observations from a re-analysis of the deposited data

How the results depend on the processing

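Of 2100 log2 differences of the 10 genes recomputed under the alternatives, 1937 kept their direction and their side of the threshold, 54 lost a call, 34 gained one and 75 changed sign, all 75 from results that were not called. The 44 called results kept their direction in all 704 recomputations, and 21 lost the call in at least 1. The cause of a change was not tested unless the alternative itself has fewer genes or samples. Leaving out both libraries of a number left 2 against 2. Single libraries ended the call of *B2m* in controls at 24 h (each control library of 24 h), *Tap2* in controls at 48 h against 0 h (each of 48 h and replicate 2 of 0 h), *Psmb9* in B-CKO at 24 h (each of 24 h, and replicates 2 and 3 of 0 h), *Tap1* in B-CKO at 48 h against 0 h (each of 48 h, and replicates 2 and 3 of 0 h) and *Psmb10* in B-CKO at 48 h against 24 h (each of 24 h and replicate 1 of 48 h). Without both libraries of replicate 2, *B2m*, *Psmb8*, *Psmb9*, *Tapbp* and *Tap2* in controls at 24 h and *Psmb8* and *Tap2* at 48 h against 0 h lost their calls. Without those of replicate 2 or 3, *Psmb8* (24 h and 48 h), *Tapbp* and *Psmb9* (24 h) and *Tap1* (48 h against 0 h) did in B-CKO. Without those of replicate 1, the calls from 24 h to 48 h of *H2-K1* in both genotypes were lost. In B-CKO, so were those of *H2-D1*, *Nlrc5* and *Psmb10* for that step and that of *Nlrc5* at 24 h. In controls, *B2m* at 24 h lost its call without those of replicate 1 or 3, and *Tap2* at 48 h against 0 h without those of replicate 1. *Tap1* in B-CKO gained a call at 24 h with a mean of at least 1 FPKM (adjusted p = 0.0425), TPM (0.00625), median-ratio scaling (0.00677), the single fit (0.0140), the replicate block (0.0495) and the block with that mean (0.0348). It also gained one without replicate 1 or without replicate 2 of B-CKO at 0 h. With a replicate block it also lost its call at 48 h against 0 h (adjusted p = 0.0655), the genotype calls over all genes went from 15 to 5 (24 h) and from 7 to 3 (48 h), and no call of the 10 genes changed beyond these. With the replicate block and a mean of at least 1 FPKM together, 22, 704 and 116 genes were called between genotypes at 0 h, 24 h and 48 h, and 3 of the 10 at 24 h. A mean of at least 1 FPKM alone gave 2, 388 and 29 genes with none of the 10, and tested fewer genes (9711 in place of 15104 at 24 h), and a pseudocount of 0.1 gave 46 at 24 h. Fitting the 18 libraries together called 23 genes at 0 h and 11 at 48 h between genotypes, 3 for the change of the genotype difference from 0 h to 48 h (median-ratio scaling 1), and 3 of the 10 higher from 24 h to 48 h in controls, where *Tap2*, *Psmb9* and *Psmb10* lost their calls (adjusted p = 0.111, 0.0678 and 0.170), as did *Psmb10* in B-CKO (0.226). At 48 h against 0 h in B-CKO, 5 of the 10 in place of 3 were lower with a mean of at least 1 FPKM, TPM, the single fit, and the block with that mean. TPM turned the sign of *H2-D1* between genotypes at 48 h (-0.0156), *Tap1* in controls at 24 h (-0.0812), *Psmb8* in controls from 24 h to 48 h (-0.0267), *Tapbp* and *Psmb10* in controls (-0.0720 and -0.19) and *Tapbp* in B-CKO (-0.13) at 48 h against 0 h, and *Tap2* for the genotype difference from 0 h to 48 h (-0.00836). Leaving out libraries, genotype calls over all genes ranged from 0 to 1 (0 h), 0 to 8 (24 h) and 0 to 6 (48 h), those of the genotype difference from 0 to 2, 0 to 3 and 0 to 3, and those from 24 h to 48 h from 4496 to 6404 in controls and 4148 to 7124 in B-CKO. The 10 genes called higher at 24 h ranged from 0 to 3 in controls and 0 to 4 in B-CKO, those lower in controls from 2 to 4, those from 24 h to 48 h in B-CKO from 3 to 6 higher and 1 to 3 lower, and those higher at 48 h against 0 h in B-CKO from 1 to 4. Log2 differences that changed sign on leaving out libraries ranged between genotypes at 0 h from -0.0432 to 0.15 (*Tap2*), -0.12 to 0.0702 (*Tapbp*), -0.15 to 0.28 (*Psmb8*), -0.14 to 0.24 (*Psmb9*) and -0.23 to 0.24 (*Psmb10*), and at 48 h from -0.0400 to 0.10 (*H2-K1*), -0.0669 to 0.0772 (*H2-D1*), -0.0127 to 0.17 (*B2m*), -0.0293 to 0.15 (*Psmb9*), -0.15 to 0.0385 (*Psmb10*) and -0.17 to 0.0045 (*Nlrc5*). Over time they ranged in controls at 24 h from -0.0027 to 0.14 (*Tap1*) and -0.15 to 0.00065 (*Nlrc5*), at 48 h against 0 h from -0.27 to 0.20 (*Psmb10*), and in B-CKO from -0.0022 to 0.12 (*Psmb8*, 48 h against 24 h), -0.0061 to 0.20 (*Tapbp*) and -0.28 to 0.0716 (*Psmb10*, both 48 h against 0 h). For the genotype difference they ranged from 0 h to 24 h from -0.39 to 0.0459 (*Psmb8*), -0.33 to 0.0559 (*Psmb9*) and -0.34 to 0.13 (*Psmb10*), from 24 h to 48 h from -0.0185 to 0.10 (*Psmb8*), -0.0351 to 0.14 (*Psmb10*) and -0.0519 to 0.11 (*Nlrc5*), and from 0 h to 48 h from -0.15 to 0.0085 (*H2-D1*), -0.17 to 0.0415 (*B2m*), -0.0940 to 0.10 (*Tap2*), -0.13 to 0.0609 (*Tapbp*), -0.34 to 0.0915 (*Psmb8*), -0.16 to 0.22 (*Psmb9*) and -0.29 to 0.17 (*Psmb10*). FPKM give no depth, so no limit of detection was computed.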
